A study of Rattus norvegicus with 7 samples.

Results

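A set of 10 genes that low oxygen induces in many cell types (Adm, Vegfa, Slc2a1, Hk2, Pfkfb3, Pgk1, Ldha, Pdk1, Bnip3 and Egln3) was examined in rat mesenchymal stem cells (rMSCs) 4 h after seeding on tissue culture plastic (TCP), on films of polycaprolactone (PCL) or on films of ISB-P, a polyurethane copolymer of PCL with propoxylated isosorbide. The genes were taken by symbol, 10 of 17147 listed in every library, and all 10 were found. Libraries numbered 3 for PCL, 3 for ISB-P and 1 for TCP. The primary cells were bone marrow cells from a male Sprague-Dawley rat of 6 weeks, grown in alpha MEM with FBS and antibiotics at 37°C in 5% CO2 on all surfaces, and 20000 cells were placed on each ethylene oxide sterilized film 16 mm in diameter or on TCP. The methods describe a single donor rat, and the paper speaks of repeated experiments on the films without saying whether these were separate cultures or cell preparations, so that the p-values measure only the spread between these libraries.

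In normal oxygen, prolyl hydroxylases of the Egln family mark the alpha subunits of the hypoxia-inducible factors (HIF) for destruction. When oxygen is short the alpha subunits persist, pair with Arnt and raise genes of glucose uptake, glycolysis, vessel growth and mitochondrial removal. Several of these genes also answer to growth factor, nutrient and stress signals without any change in oxygen, and Hif1a itself is controlled mostly at the protein level, which RNA does not show.

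The values were read as FPKM, in which fragments are divided by the length of the transcript and the size of the library. Their sums ranged from 539393 to 660124 per library. A gene was tested where at least 3 of the 6 film libraries reached 1 FPKM, which 9467 genes and 9 of the 10 did. Differences were computed on log2(FPKM + 1), a scale that understates the change of low genes. All 8 mesenchymal markers were above 1 FPKM, with Thy1 between 925 and 1210 FPKM, and no endothelial marker reached 1 FPKM in any library. Of 8 leukocyte markers, 6 were above 1 FPKM in some library, and their summed level was 129.5 FPKM on TCP, 39.2 to 46.6 on PCL and 39.4 to 45.3 on ISB-P. Cd3e, which defines T cells, was listed at 0 in every library.

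Adm, Slc2a1 and Hk2 formed a staircase, lowest on TCP, intermediate on PCL and highest on ISB-P, with no overlap between the surfaces. Vegfa, Pfkfb3 and Pdk1 lay at like levels on all 3 surfaces, Pgk1 and Ldha were lower on TCP than in every film library, Bnip3 varied mainly with the replicate number, and Egln3 was near 0 throughout. That order from TCP through PCL to ISB-P without overlap, chosen after the values were seen, was held by 3 of the 9 tested genes and by 3.51% of all tested genes.

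**Figure D1:**
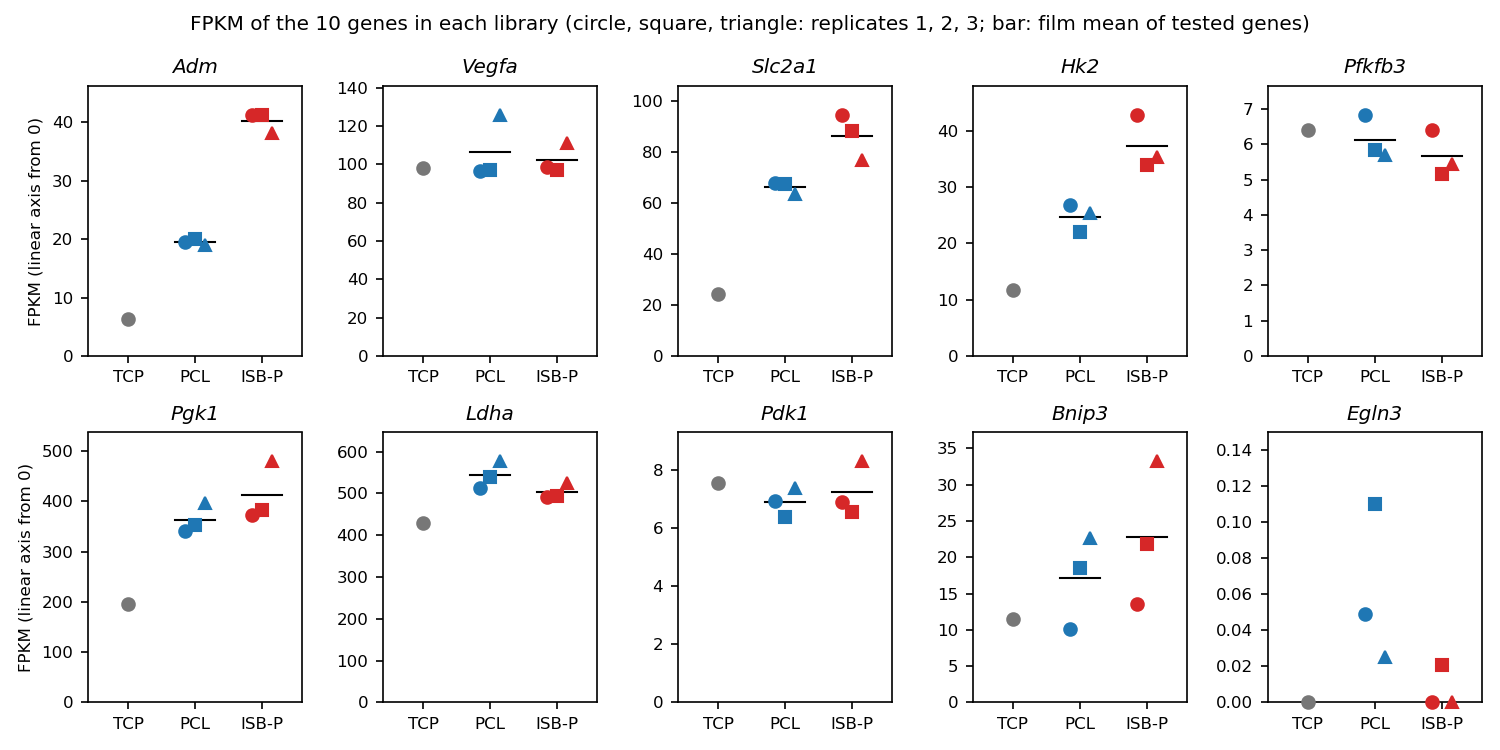
FPKM (linear axes starting at 0) of each of the 10 genes on TCP (grey, 1 library), PCL (blue, 3 libraries) and ISB-P (red, 3 libraries), with circles, squares and triangles for replicates 1, 2 and 3 and bars for the film means of the tested genes. Adm runs from 6.31 FPKM on TCP to between 38.1 and 41.3 on ISB-P, while Vegfa on TCP, at 98.1 FPKM, lies inside the range of the film libraries.

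Adm encodes adrenomedullin, a secreted peptide that widens vessels and maintains the endothelial barrier. It was 6.31 FPKM on TCP, 19.5, 20.1 and 19.0 on PCL for replicates 1, 2 and 3, and 41.2, 41.3 and 38.1 on ISB-P in that order. Each film thus held a narrow band of its own, the 2 bands were far apart, and the single TCP value lay below both. The mean was 19.5 ± 0.522 FPKM (SD, n = 3) on PCL and 40.2 ± 1.80 (SD, n = 3) on ISB-P, a log2 difference of 1.00 in limma (standard error 0.11, adjusted p = 0.0120), or 2.01-fold. The ratio of ISB-P to PCL was 2.11, 2.06 and 2.00 within replicates 1, 2 and 3. In bulk RNA, fewer cells carrying a transcript and less of it per cell cannot be told apart. Its adjusted p rose above 0.05 without PCL replicate 1, 2 or 3 (0.0688, 0.113 and 0.0861) or ISB-P replicate 2 (0.131), while the log2 difference remained between 0.99 and 1.04 whichever library was left out.

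Adm was the only one of the 9 tested genes with an adjusted p under 0.05, where 1.72% of all tested genes had one. Over all tested genes ISB-P was higher for 104 and lower for 59, or 70 and 70 after scaling to a common total, which moved the median difference of all genes from 0.02 to -0.09 on the log2 scale. Same-numbered libraries of both films deviated together, and once this number was added as a block to the fit 4 of the 9 passed, all higher on ISB-P, where 24.4% of all tested genes did. They were Adm (adjusted p = 4.67e-05), Hk2, Slc2a1 and Bnip3. At an unadjusted p under 0.05 without the block there were 3 of the 9 (Adm, Hk2 and Slc2a1), and 12.1% of all tested genes. For 3 of the 9 the lowest ISB-P library exceeded the highest PCL library, as it did for 8.17% of all tested genes. Among the markers above 1 FPKM the films also separated for 2 of 8 mesenchymal genes, both lower on ISB-P: Pdgfrb, at 154 to 177 FPKM on PCL and 86.6 to 109.6 on ISB-P, and Pdgfra, at 40.4 to 47.5 and 31.6 to 40.2. Of the 6 leukocyte genes 1 did, Cd14, at 14.4 to 16.6 FPKM on PCL and 10.9 to 11.4 on ISB-P. Over all tested genes 17.7% were without overlap in one direction or the other. The part of these markers in the film differences was not tested. The exact permutation test, two-sided, gave p = 0.1 for Adm, Slc2a1 and Hk2, the smallest that 3 against 3 libraries allow.

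Hk2 encodes hexokinase 2, which traps glucose in the cell as glucose 6-phosphate. It stood at 11.7 FPKM on TCP, 26.8, 22.0 and 25.3 on PCL for replicates 1, 2 and 3, and 42.9, 34.0 and 35.3 on ISB-P. The lowest ISB-P library lay above the highest PCL library, and TCP lay below both films. Means were 24.7 ± 2.46 (SD, n = 3) on PCL and 37.4 ± 4.78 (SD, n = 3) on ISB-P. The log2 difference was 0.58 (standard error 0.15), with an adjusted p of 0.146 in limma and of 0.00123 with the replicate block.

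Slc2a1 encodes Glut1, the transporter that brings glucose across the plasma membrane. It was 24.5 FPKM on TCP, 67.7, 67.7 and 63.7 on PCL and 94.6, 88.2 and 76.8 on ISB-P, for replicates 1, 2 and 3. The gap between TCP and the films was wider than the gap between the films. Means were 66.4 ± 2.29 (SD, n = 3) on PCL and 86.5 ± 9.03 (SD, n = 3) on ISB-P. The log2 difference was 0.37 (standard error 0.13), with an adjusted p of 0.291 in limma and of 0.00730 with the replicate block. After upper quartile scaling, quantile normalization or scaling to a common total it was 0.29, 0.25 and 0.26, and the films then overlapped for Slc2a1, whereas Adm and Hk2 remained without overlap.

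**Figure D2:**
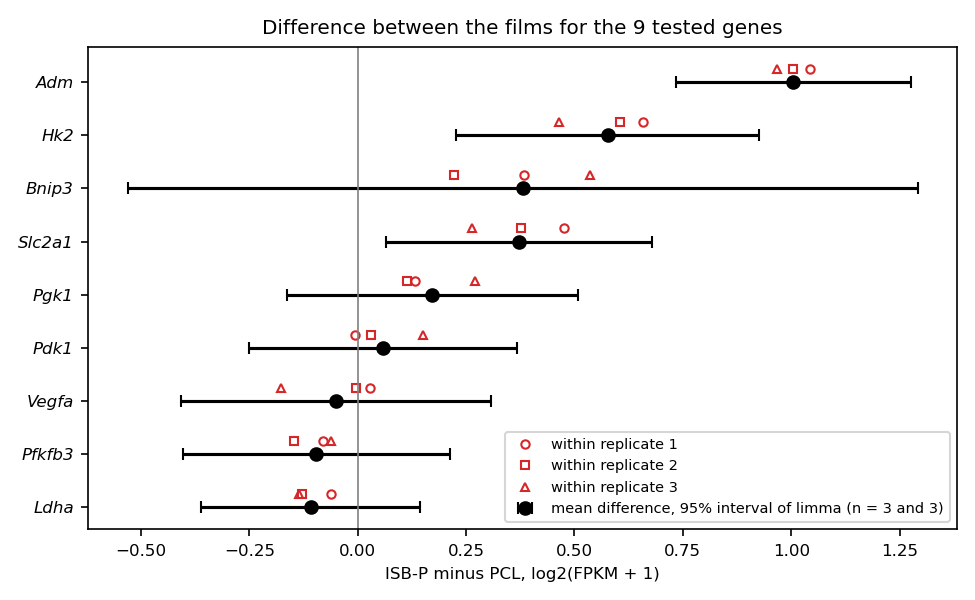
Difference between ISB-P and PCL on log2(FPKM + 1) for the 9 tested genes, with black points and bars for the mean difference and its 95% interval in limma and red marks for the difference within each replicate number. The interval of Adm runs from 0.73 to 1.28, and the red marks of Bnip3 lie close together inside its wide bar of -0.53 to 1.29.

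The upstream sequences of the 3 staircase genes are shown with that of Ldha, a gene whose films overlapped. HIF binds DNA at a core of ACGTG or GCGTG, and only ACGTG was searched for here. For each gene these are the 250 bases before a RefSeq transcription start, 5′ to 3′ on the gene's strand, from the GRCr8 assembly, with ACGTG or its reverse complement in capitals. RefSeq gives Adm several transcripts, and its gene record begins further upstream than the start in the promoter table, so the Adm window precedes only 1 of the possible starts.
Adm, GRCr8 chr1:174179950-174180199, + strand: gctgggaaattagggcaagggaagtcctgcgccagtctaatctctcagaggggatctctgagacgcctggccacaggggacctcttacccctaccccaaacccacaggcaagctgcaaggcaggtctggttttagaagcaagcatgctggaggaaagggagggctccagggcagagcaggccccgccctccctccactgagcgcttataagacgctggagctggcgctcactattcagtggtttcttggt
Hk2, GRCr8 chr4:116841276-116841525, - strand: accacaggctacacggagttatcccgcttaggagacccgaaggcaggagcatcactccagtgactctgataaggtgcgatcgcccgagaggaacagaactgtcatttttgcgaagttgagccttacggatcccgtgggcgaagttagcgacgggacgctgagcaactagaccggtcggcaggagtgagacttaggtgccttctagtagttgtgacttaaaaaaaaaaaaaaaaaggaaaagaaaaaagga
Slc2a1, GRCr8 chr5:138002272-138002521, + strand: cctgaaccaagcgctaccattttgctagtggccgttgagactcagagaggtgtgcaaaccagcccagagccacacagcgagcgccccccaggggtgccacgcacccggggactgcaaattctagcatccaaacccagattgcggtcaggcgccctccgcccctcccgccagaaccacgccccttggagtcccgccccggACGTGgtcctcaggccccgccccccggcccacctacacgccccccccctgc
Ldha, GRCr8 chr1:106507842-106508091, + strand: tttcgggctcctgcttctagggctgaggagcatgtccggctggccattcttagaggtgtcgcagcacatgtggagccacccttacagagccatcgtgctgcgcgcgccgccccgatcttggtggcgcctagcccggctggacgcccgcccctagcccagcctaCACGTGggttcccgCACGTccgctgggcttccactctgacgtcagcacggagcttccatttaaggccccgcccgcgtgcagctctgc

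Of the 9 genes with a promoter entry, all but Pgk1, 4 held ACGTG on either strand in this window: Slc2a1, Ldha, Bnip3 and Pfkfb3. Of 33469 rat promoter windows of the same length, 16.6% held it. Slc2a1 had 1 match, starting 51 bases before the start site. Ldha had a run of CACGTG from 87 bases before the start, and a further match from 73 bases. The run of CACGTG reads as ACGTG on both strands and also spells an E-box. The windows of Adm and Hk2 held no ACGTG. The GCGTG form of the core, sites further away, and any other starts of Adm or Hk2 were not searched.

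Ldha encodes lactate dehydrogenase A, which turns pyruvate into lactate, and was the most abundant of the 10 genes. It was 429.8 FPKM on TCP, 514, 539 and 577 on PCL and 492, 493 and 525 on ISB-P, in replicate order. TCP was lowest, and the films overlapped, with ISB-P below PCL in each of the 3 replicate numbers. The log2 difference between ISB-P and PCL was -0.11, with a 95% interval from -0.36 to 0.14 (adjusted p = 0.859 in limma), an interval that leaves out a rise such as that of Adm.

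Pgk1 encodes phosphoglycerate kinase 1, an ATP-yielding step of glycolysis. It was 196 FPKM on TCP, 341, 353 and 397 on PCL and 374, 382 and 479.6 on ISB-P. Every film library was well above TCP, and each ISB-P library was above the PCL library of the same number. The log2 difference between the films was 0.17, with a 95% interval from -0.16 to 0.51 (adjusted p = 0.806 in limma, 0.0863 with the replicate block).

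Pfkfb3 makes fructose 2,6-bisphosphate, the activator of phosphofructokinase. It was 6.40 FPKM on TCP, between 5.71 and 6.83 on PCL and between 5.16 and 6.42 on ISB-P. Its low level was shared by all surfaces, with a log2 difference between the films of -0.10 and a 95% interval from -0.40 to 0.21 (adjusted p = 0.908 in limma). The 3 genes Pfkfb3, Pgk1 and Ldha therefore did not pass between ISB-P and PCL with or without the replicate block.

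Vegfa encodes vascular endothelial growth factor A and shares with Adm the role of a vessel signal. It was 98.1 FPKM on TCP, 96.7, 97.1 and 125.7 on PCL and 98.7, 96.9 and 111.0 on ISB-P. Replicate 3 was highest on both films, and the other film libraries lay within about 2 FPKM of TCP. The log2 difference between the films was -0.05, with a 95% interval from -0.41 to 0.31 (adjusted p = 0.959 in limma). The interval of Adm, from 0.73 to 1.28, did not meet it.

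Pdk1 encodes pyruvate dehydrogenase kinase 1, which inhibits pyruvate dehydrogenase. It was 7.55 FPKM on TCP, between 6.38 and 7.36 on PCL and between 6.54 and 8.29 on ISB-P, with a log2 difference of 0.06 and a 95% interval from -0.25 to 0.37 (adjusted p = 0.942 in limma). Its sign changed to -0.012 after upper quartile scaling and to -0.044 after scaling to a common total.

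Bnip3, a mitochondrial receptor that directs mitochondria to autophagy, was 11.4 FPKM on TCP, 10.2, 18.5 and 22.6 on PCL for replicates 1, 2 and 3, and 13.6, 21.8 and 33.2 on ISB-P. The same-numbered libraries of both films stood in the same order, so that the spread within a film exceeded the gap between films. The log2 difference was 0.38 (standard error 0.38, adjusted p = 0.868 in limma), and with the replicate block its standard error was 0.09 and its adjusted p 0.0139. ISB-P was 1.33-, 1.18- and 1.47-fold above PCL within replicates 1, 2 and 3. Without PCL replicate 1 the unblocked log2 difference was 0.07, without ISB-P replicate 3 it was 0.08, without PCL replicate 3 it was 0.61 and without ISB-P replicate 1 it was 0.69.

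The replicate number itself was tested with an F-test in the limma fit that holds film and number. It gave an adjusted p under 0.05 for 3 of the 9, Bnip3 (5.71e-04), Pgk1 (0.0241) and Vegfa (0.0330), where 58.4% of all tested genes had one. Adm had an adjusted p of 0.612 in this test, Slc2a1 of 0.178 and Hk2 of 0.0537. What the number stands for is not given in the labels, and its part in the differences of Bnip3 and Pgk1 beyond the block was not tested.

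Egln3, a prolyl hydroxylase that is itself a HIF target, was under the limit for testing. It was listed at 0 on TCP, at 0.0490, 0.111 and 0.0252 FPKM on PCL for replicates 1, 2 and 3, and at 0, 0.0207 and 0 on ISB-P. All are far below 1 FPKM, and no fold is given. Egln2, of the same family, was 23.2 FPKM on TCP and between 15.3 and 28.6 on the films.

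The paper describes replicates for its RNA-seq, TCP included, but a single TCP library was analysed here, and whether it stands for the study's TCP group is not known. It allows no test, and comparisons with it share that library. On PCL, 3 of the 9 genes were over 2-fold above TCP, with 5.25% of all tested genes past the same limit: Adm by 2.81-fold, Slc2a1 by 2.64-fold and Hk2 by 2.03-fold, as ratios of FPKM + 1. On ISB-P, 4 of the 9 were, against 7.93% of all tested genes: Adm by 5.63-fold, Slc2a1 by 3.42-fold, Hk2 by 3.02-fold and Pgk1 by 2.08-fold. The TCP library lay below all 6 film libraries for 5 of the 9 (Adm, Slc2a1, Hk2, Pgk1 and Ldha), and for 29.7% of all tested genes. None of the 9 was over 2-fold below TCP on either film, and the share of all tested genes past that limit was not computed. The filter used the film libraries and so favoured genes that are high there.

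Hk2 on PCL and Pgk1 on ISB-P were close to the 2-fold limit, and under each of 3 other scalings the numbers were 2 on PCL and 3 on ISB-P, without them. The shares of 5.25% and 7.93% of all tested genes are for the unscaled values and were not computed under these scalings. Hk2 on PCL also fell under the limit without PCL replicate 1 or 3, Pgk1 on ISB-P without ISB-P replicate 3, and without ISB-P replicate 1 Bnip3 passed on ISB-P. Upper quartile scaling moved the median difference of all genes between ISB-P and TCP from 0.06 to -0.12, and that of Adm from 2.49 to 2.31. All 6 leukocyte markers above 1 FPKM were higher on TCP than in every film library. Lyz2, for example, was 72.9 FPKM on TCP and 16.6 to 27.2 on the films. So were 4 of the 8 mesenchymal markers (Thy1, Eng, Pdgfra and Vcam1) higher on TCP than in every film library. The share of all tested genes with TCP above every film library was not computed. The part of these markers in the TCP differences was not tested. Between the films the summed leukocyte level, most of it Lyz2 and Cd14, overlapped, although Cd14 itself did not.

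**Figure D3:**
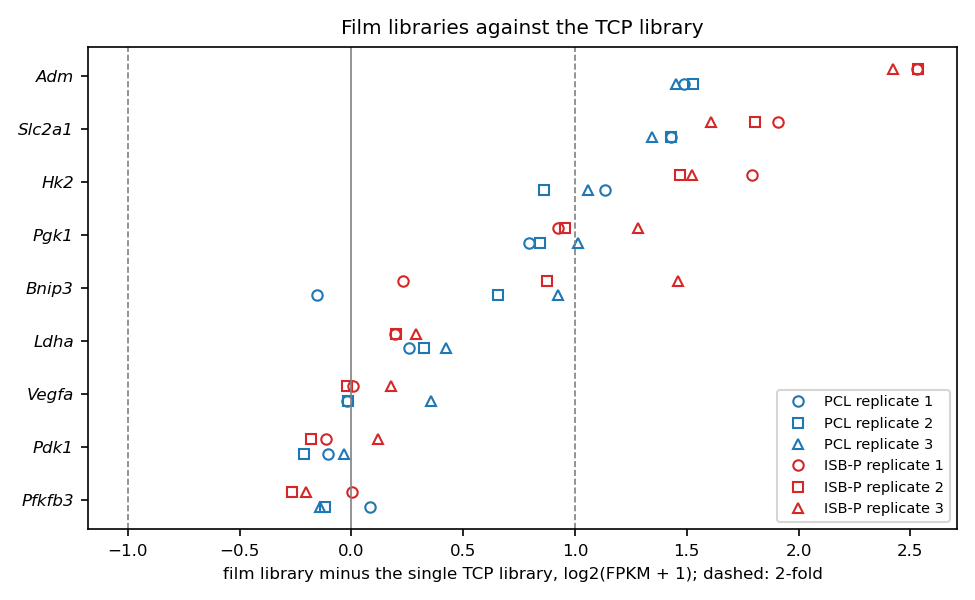
Each film library minus the TCP library on log2(FPKM + 1) for the 9 tested genes, PCL in blue and ISB-P in red, with symbols for the replicate number and dashed lines at 2-fold. All film libraries of Adm and Slc2a1 lie beyond the upper line, and those of Vegfa, Pdk1 and Pfkfb3 lie around 0.

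No other gene of the pathway lists passed between the films in limma without the replicate block. Of 14 other glycolytic enzymes 13 were tested and none had an adjusted p under 0.05 in limma, with 0 at an unadjusted p under 0.05, 1 passing with the replicate block (Pfkp, higher) and a median log2 difference of -0.03 against 0.02 over all tested genes and 0.17 over the 9. The largest differences were those of the phosphofructokinases Pfkp (0.24) and Pfkl (-0.23). Against TCP the enzymes differed in both directions. Gapdh was 1943 FPKM on TCP and 2940 to 3529 on the films, and Tpi1 was 133 and 257 to 331, while the aldolase Aldoc was 21.2 FPKM on TCP and 3.04 to 3.96 on the films. These 3 were chosen after their values were seen. Between ISB-P and TCP 1 of the 13 was over 2-fold higher, where 7.93% of all tested genes were, and 1 was over 2-fold lower. The share of all tested genes over 2-fold lower was not computed.

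Among paralogs of the 10 genes, 19 of 21 symbols were listed and 14 tested, again with none at an adjusted p under 0.05 in limma and 3 at an unadjusted p under 0.05 (median log2 difference -0.06). With the replicate block 3 of the 14 passed, a share no larger than the 24.4% of all tested genes, and all were lower on ISB-P: Pgf, placental growth factor of the VEGF family (log2 difference -0.42, adjusted p = 0.0124), Pdk2 (-0.39, adjusted p = 0.00898) and Pfkfb4 (-0.32, adjusted p = 0.0456). Slc2a3, the other glucose transporter often raised by HIF, was listed at 0 in every library.

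Of the HIF pathway factors, 8 of 9 symbols were listed and 7 tested, with none at an adjusted or unadjusted p under 0.05 in limma and a median of 0.09. Hif1a had the largest difference, 0.58 on the log2 scale (standard error 0.37, adjusted p = 0.689, or 0.00403 with the replicate block). It was 45.1 FPKM on TCP, 38.9, 63.2 and 75.4 on PCL and 56.1, 81.3 and 138.8 on ISB-P, so that its replicates stood in the same order as those of Bnip3. Arnt, its partner, followed with 0.19. Epas1, which encodes the HIF-2 alpha subunit, was 7.79 FPKM on TCP and 2.62 to 4.51 on the films.

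Of 27 symbols of other HIF targets 24 were listed and 23 tested, with none at an adjusted p under 0.05 in limma, 3 at an unadjusted p under 0.05 and a median of 0.08. Of all tested genes 12.1% had such an unadjusted p, a share near that of the list. With the replicate block, 4 were higher on ISB-P (Bhlhe40, P4ha1, Plod2 and Wsb1) and 2 lower (Cited2 and Ddit4), again a share near the 24.4% of all tested genes. The largest differences were those of Cited2, a HIF feedback inhibitor, at -0.63 (adjusted p = 0.245, or 0.00177 with the block) and of the repressor Bhlhe40 at 0.58 (adjusted p = 0.126, or 5.64e-04 with the block). Bhlhe40 was 102.9 FPKM on TCP and 50.7 to 61.0 on PCL, and 76.5 to 92.5 on ISB-P, so that TCP was its highest surface. Ddit4, an inhibitor of mTORC1 and named after its values were seen, was 42.3 FPKM on TCP, 21.3 to 25.2 on PCL and 13.1 to 17.5 on ISB-P, the reverse of the staircase of Adm.

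**Figure D4:**
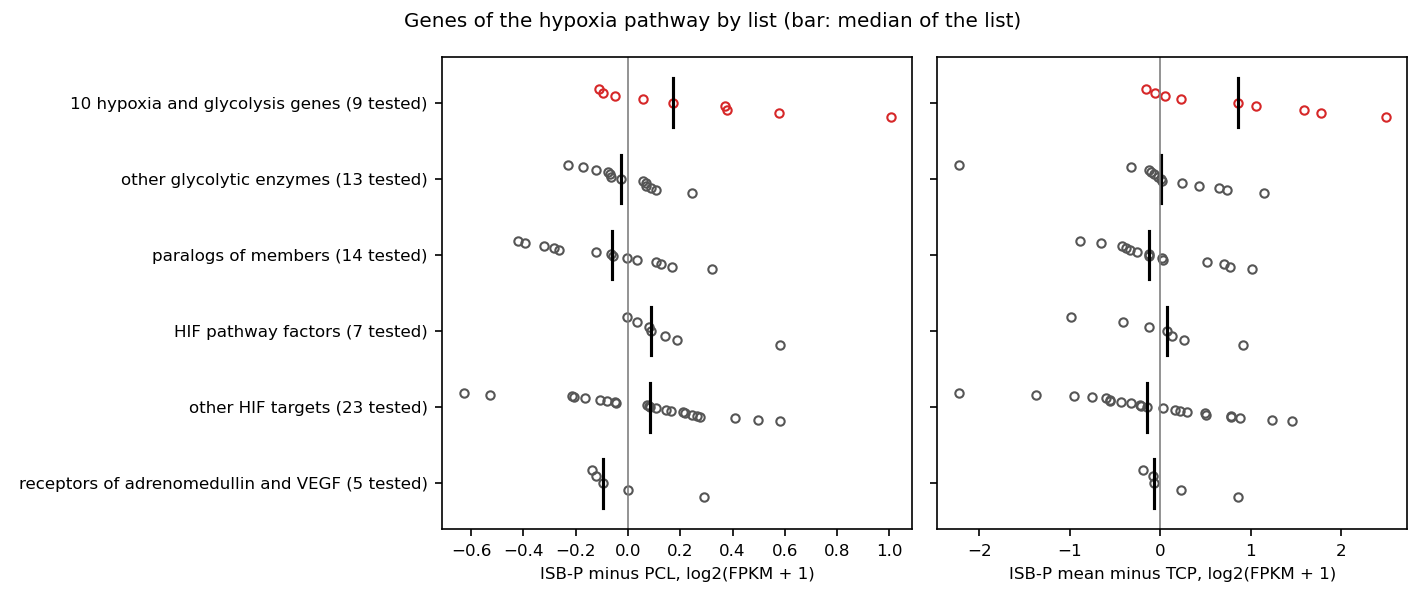
Differences between ISB-P and PCL (left) and between the ISB-P mean and TCP (right) on log2(FPKM + 1), with each circle a tested gene, each row a list and black bars the list medians; a gene in several lists is drawn in each. The 9 tested hypoxia and glycolysis genes (red) have medians of 0.17 and 0.86, and the medians of the other lists lie between -0.10 and 0.09 on the left and between -0.15 and 0.07 on the right.

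Receptors for the 2 secreted members showed no call either. Of 8 genes 5 were tested, with 0 at an adjusted or unadjusted p under 0.05 in limma and a median of -0.10. Calcrl, the receptor that binds adrenomedullin together with a Ramp protein, was 0.942 FPKM on TCP and 1.46 to 4.57 on the films (log2 difference 0.29), and Nrp2, a VEGF coreceptor, had -0.14. Ramp2 and Ramp3 were expressed at 20.1 to 88.1 FPKM over all libraries. The VEGF receptor Kdr was between 0.0583 and 0.365 FPKM and was not tested.

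Outside the 10 genes, the profiles over the 7 libraries that came closest to that of Adm, by the mean absolute difference of centred log2(FPKM + 1), were those of Adamts1 (0.10), Ggt1 (0.13) and Ptgr1 (0.17). Adamts1, a secreted metalloprotease, was 23.5 FPKM on TCP, 56.8 to 62.7 on PCL and 124 to 132 on ISB-P. Closest to Hk2 were Slc1a4 (0.07), Smpdl3b (0.09) and Akr1b1 (0.10). Slc1a4, a neutral amino acid transporter, was 57.7 FPKM on TCP, 103 to 114 on PCL and 148 to 180.2 on ISB-P. These likenesses rest on 7 libraries that share their surfaces and replicate numbers.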

How the data were processed

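RNA of rMSCs was made into TruSeq Stranded mRNA libraries and read as paired ends by the authors. The submitters' processing notes list bcl2fastq 2.20.0.422, cutadapt 1.18, TopHat2 2.0.13, Cuffdiff 2.2.1 and rat build rn5, and the methods name ExDEGA. Annotation and settings are not given in the sources used here. The authors deposited 1 table of values per library, taken here as FPKM from Cuffdiff; the notes give the tools no role or order. The unit is not named in the sources, and was inferred because the values are not whole, their lowest steps differ between genes and Cuffdiff reports FPKM. Read depth could not be recovered: the lowest values of library pairs shared a common step in at most 45.5% of genes, so no counting error is given.

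Groups came from sample titles. The members and gene lists were chosen with earlier results of these data known. Named are all 10 members, up to 2 genes of each other list where none passed, and the 3 nearest profiles for Adm and Hk2; any other gene was picked with its values in view, or because it passed with the block. ISB-P and PCL were compared with limma 3.58.1 in R 4.3.3 (lmFit, eBayes with trend, two-sided) on log2(FPKM + 1) over all 9467 genes with at least 1 FPKM in 3 film libraries, with Benjamini-Hochberg adjustment at 0.05, and single genes by exact permutation in scipy 1.17.1. TCP, with 1 library, was compared as values only. Replicate numbers of the labels pair the films: deviations from the film means correlated across genes at 0.887, 0.431 and 0.867 for numbers 1, 2 and 3. Code was tested on simulated data. Promoter sequences are from RefSeq (GRCr8), matched by symbol. The alternatives were 3 scalings, a pseudocount of 0.1, other filters, the replicate block, TCP in the fit, no trend and each film library left out. The level of 1 marker gene is not reported here.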

Additional observations from a re-analysis of the deposited data

How the results depend on the processing

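The number of the 9 tested genes with an adjusted p under 0.05 between ISB-P and PCL in limma was 1, and 4 with the replicate block. It was 1 under the other scalings, pseudocount, filters, trend and TCP in the fit, and 0 to 1 with a library left out. Over all tested genes the 163 calls became 2307 with the replicate block, 108 after upper quartile scaling, 85 with a minimum of 5 FPKM and 20 to 113 with a library left out; fewer libraries were then fitted. The number of the 9 that differed between replicate numbers was 3, where 58.4% of all tested genes did, and 5 after upper quartile scaling or quantile normalization. The share of all tested genes under those scalings was not computed, and the cause of the change was not tested.

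Signs turned for 2 of the 9 genes, neither past the threshold in any alternative. Pdk1, at 0.06, was -0.012 after upper quartile scaling, -0.044 after scaling to a common total and -0.031 to 0.12 with a library left out. Vegfa, at -0.05, ranged from -0.11 to 0.073 with a library left out, the last without PCL replicate 3. Adm ranged from 0.89 to 1.04 over 15 alternatives, with adjusted p from 4.67e-05 to 0.131 and 11 of them under 0.05. Hk2 (0.46 to 0.64), Slc2a1 (0.25 to 0.45) and Bnip3 (0.07 to 0.69) passed with the replicate block and under none of the other 14. The block changed no other call among the 9. The order from TCP through PCL to ISB-P, an alternative added after the data were seen, held for 3 genes after upper quartile scaling (Adm, Hk2 and Pgk1) and for 2 after quantile normalization or scaling to a common total (Adm and Hk2). The share of all tested genes in this order, 3.51%, is for the unscaled values and was not computed under these scalings. Read depth is unknown, so precision rests on 3 libraries a film.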
